A study of Mus musculus with 2 samples.

Results

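The 6 genes described here, Phox2a, Hand1, Hand2, Tlx2, Zeb2 and Insm1, encode transcription factors that are known from the differentiation of enteric neurons or of related cells. They were listed by symbol, and each symbol matched 1 of the 43346 Ensembl genes in the deposited tables. The series holds 2 RNA-seq libraries from total RNA of mouse stomach at embryonic day 14.5 (E14.5), strain B6NCrl, with no allele or agent named. By the labels, each library was made from 10 ng of RNA of the stomach of a single pup. Collection was on day 15 (replicate 1) and day 17 (replicate 2) of one month. The labels also call the sex pooled, so whether each sample is 1 pup or a pool is not settled. They give both samples the same pup, dam and donor designations on different dates. There is 1 group and no second condition, so the values are levels in an organ and the spread between 2 libraries, with no test of a difference.

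The enteric nervous system forms from neural crest cells that migrate into the foregut, spread through the gut wall and become neurons and glia. Homeodomain, basic helix-loop-helix (bHLH) and zinc-finger factors act in turn in that process: some keep the migrating cells in a progenitor state, others drive the exit to a neuron. Several of them also act outside the nervous system, so in RNA of a whole stomach a factor's level sums over every cell type that makes it. Phox2a is a paired-like homeodomain factor of autonomic neurons that acts in the noradrenergic programme. Hand2 and Hand1 are bHLH factors that bind DNA as dimers with E-proteins. In the mouse Hand2 is needed for the terminal differentiation of enteric neurons, while Hand1 is best known from the heart and the placenta. Tlx2 is a homeobox factor of enteric neurons, whose loss in mice disturbs the myenteric ganglia. Zeb2 is a zinc-finger and homeobox repressor that acts in the neural crest and, beyond it, in mesenchymal and blood cells. Insm1 is a zinc-finger repressor of newly formed neurons and endocrine cells.

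Hand1 and Hand2 are close relatives, and their coding sequences show how near 2 members of the set come to each other. The most similar ungapped stretch of 90 coding bases is printed below, read 5′ to 3′ from the GENCODE M21 transcripts, with the bases that differ in capitals. It covers coding bases 346 to 435 of Hand1 and 361 to 450 of Hand2, counted from the A of the start codon.

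Hand1: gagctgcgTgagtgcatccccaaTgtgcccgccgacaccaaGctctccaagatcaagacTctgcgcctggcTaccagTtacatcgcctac

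Hand2: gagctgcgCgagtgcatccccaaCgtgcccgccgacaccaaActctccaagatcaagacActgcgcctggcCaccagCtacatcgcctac

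In this stretch 84 of 90 bases are identical (93.3%), and all 6 codons that differ encode the same residue in both genes. The longest run of bases shared exactly between the whole coding sequences, which have 648 and 651 bases without the stop codon, is 17. The deposited effective lengths are 99 bases shorter than the transcripts, as they would be for fragments of 100 bases. No window of 100 bases of Hand1 occurs in a transcript of another gene of GENCODE M21, on either strand, and none of Phox2a, Tlx2 or Insm1 does. At that length no exact match is shared between Hand1 and Hand2. For Hand2, 263 of 2252 such windows (11.7%) recur in Hand2os1, the gene on the opposite strand, and for Zeb2 211 of 20226 (1.04%) recur in its antisense gene Zeb2os. The sources used here do not state whether counting used strand, so how reads were assigned where Zeb2 and Zeb2os overlap is not stated either. In replicates 1 and 2 the expected counts of Zeb2 (4059.74 and 4596.50) and of Zeb2os (27.26 and 33.50) were not whole. Reads divided between genes give such counts. None of the 8 Hand2os1 transcripts in the deposited tables overlaps Hand2, so the windows shared there come from transcripts that those tables lack. Whether reads of such transcripts were counted to Hand2 is not known here.

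RefSeq starts on build GRCm38.p6, the assembly of mm10, were given for 3 of the 6 members: 4 for Zeb2, 1 for Hand2 and 1 for Phox2a. The 4 windows below run from 250 bases before to 50 bases after a start and are shown on the gene's own strand. The Hand2 window is shown because annotated transcripts start in it on both strands, and the Phox2a window because all reads of the gene were assigned to 1 transcript that starts there. The 2 Zeb2 windows lie at the annotated start regions whose transcripts were assigned most of that gene's RNA. The downstream Zeb2 window begins shortly before the first base of that region's largest transcript, so it holds little sequence upstream of that transcript. Capitals mark E-boxes (CANNTG, the letters that bHLH dimers such as Hand2 with an E-protein can bind).

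Hand2, chr8:57320733-57321032, plus strand: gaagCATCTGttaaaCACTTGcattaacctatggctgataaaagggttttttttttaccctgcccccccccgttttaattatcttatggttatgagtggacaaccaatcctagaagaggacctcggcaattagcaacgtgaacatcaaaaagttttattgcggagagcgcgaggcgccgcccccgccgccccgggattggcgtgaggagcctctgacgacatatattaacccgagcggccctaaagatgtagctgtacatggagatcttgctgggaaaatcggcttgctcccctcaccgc

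Phox2a, chr7:101818063-101818362, plus strand: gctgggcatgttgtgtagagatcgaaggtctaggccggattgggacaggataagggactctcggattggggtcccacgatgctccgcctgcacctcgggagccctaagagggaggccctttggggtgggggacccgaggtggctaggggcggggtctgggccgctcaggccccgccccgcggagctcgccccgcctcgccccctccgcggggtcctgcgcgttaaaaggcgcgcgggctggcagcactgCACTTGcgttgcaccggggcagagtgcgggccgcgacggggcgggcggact

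Zeb2, start in the middle region, chr2:45113230-45113529, minus strand: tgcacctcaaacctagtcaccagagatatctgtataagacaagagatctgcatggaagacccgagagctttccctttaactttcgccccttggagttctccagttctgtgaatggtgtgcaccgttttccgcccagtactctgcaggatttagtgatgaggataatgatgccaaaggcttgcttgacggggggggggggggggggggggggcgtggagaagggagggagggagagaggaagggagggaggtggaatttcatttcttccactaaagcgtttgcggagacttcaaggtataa

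Zeb2, start in the downstream region, chr2:45110228-45110527, minus strand: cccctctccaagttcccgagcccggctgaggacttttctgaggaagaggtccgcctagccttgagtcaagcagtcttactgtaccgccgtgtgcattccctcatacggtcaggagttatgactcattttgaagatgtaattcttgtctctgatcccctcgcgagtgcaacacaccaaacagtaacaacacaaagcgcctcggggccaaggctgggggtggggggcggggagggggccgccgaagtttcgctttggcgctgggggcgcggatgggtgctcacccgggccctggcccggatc

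The Hand2 window holds 2 E-boxes, at bases -246 and -235 from the start, the Phox2a window holds 1 at base -1, and the Zeb2 windows hold none. An E-box is found in 72.3% of the 32851 windows of this length in the RefSeq table, so a match is common. CACCT, the core that Zeb factors bind, was searched on both strands and occurs 2 times in the Phox2a window, 2 times in the middle Zeb2 window and in neither of the other windows, against 51.9% of all windows with at least 1 match. TAAT, a core of homeodomain sites, was searched on both strands as well, where TAATTA counts as 2 overlapping matches, and occurs 5 times in the Hand2 window, 1 time in each Zeb2 window and not in the Phox2a window, against 58.0% of all windows with at least 1 match. The Phox2a window is rich in G and C (71.3%, against a median of 52.7% over all windows), while the Hand2 window has 50.3%.

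Depth was alike: the expected counts of replicates 1 and 2 summed to 25072242 and 25599910, and those on genes to 23668322 and 23882647. A count of 0 would allow up to 3 counts. Intervals on counts cover counting error only, since reads copied by PCR are not independent molecules. The stomach mesenchyme factor Barx1 (107.56 and 94.52 TPM in replicates 1 and 2) and the stomach hormone gene Gast (10.02 and 5.11 TPM) were present in both libraries. The libraries differed most in pancreas markers. The 7 listed summed to 279 TPM in replicate 1 and to 6.47 TPM in replicate 2, where Prss2 had 0 counts. Every other gene list used here also had a lower TPM sum in replicate 2. Endocrine markers had 31.5 and 18.6 TPM in replicates 1 and 2, heart muscle markers 13.7 and 10.5, and mesothelial markers 80.5 and 63.4. The sums of neuron markers, 393 and 385 TPM, lay closer together. TPM is a level per transcript length, and its total counts the spike-in RNAs in, which took 12.1% and 14.2% of TPM in replicates 1 and 2.

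Zeb2 was the most abundant of the 6 factors, Hand2, Phox2a and Tlx2 followed at lower levels, and Insm1 and Hand1 lay near 1 TPM. At a threshold of TPM 1 or more in both libraries 4 of the 6 were detected, beside 34.9% of all genes and 61.8% of protein coding genes. The factors together summed to 84.0 TPM in replicate 1 and 80.3 TPM in replicate 2, of which Zeb2 made up 61.4% and 64.8%. Their median was 7.90 and 6.62 TPM, beside 16.0 and 15.3 TPM for all detected genes. In RNA of a whole organ, fewer cells of a type and less RNA per cell cannot be told apart.

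**Figure D1:**
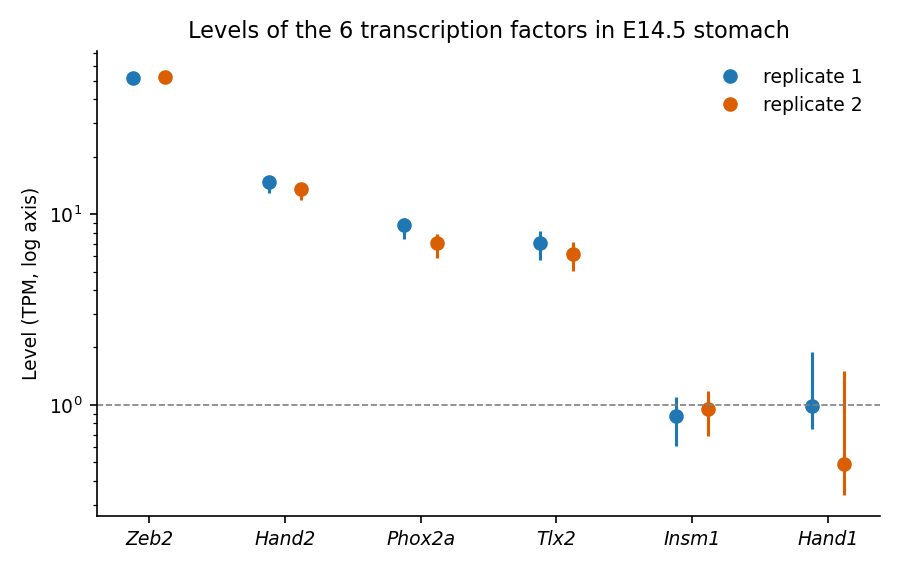
Level of each of the 6 factors in TPM on a log axis, with a point for each library and a line for the interval the authors deposited (its level is not stated in the sources used here). The dashed line marks TPM 1: Zeb2 lies highest at 51.62 and 52.04 TPM in replicates 1 and 2, and Insm1 and Hand1 lie at or below the line, with intervals that cross it.

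Phox2a (ENSMUSG00000007946.10, chromosome 7, 101818313 to 101822726, plus strand, as all positions here on mm10 with GENCODE M21) had 222 expected counts in replicate 1 and 190 in replicate 2, or 8.72 and 7.03 TPM (7.88 ± 1.195 TPM, mean ± SD, n = 2). Tlx2 (ENSMUSG00000068327.4, chromosome 6, 83068324 to 83070293, minus strand) had 148 and 137 counts, or 7.08 and 6.2 TPM (6.64 ± 0.622 TPM, n = 2). The lower Phox2a value lay below the higher Tlx2 value, so the order of the 2 homeobox genes is not separated by these libraries. Phox2a stood above 33.6% of the 15137 detected genes and Tlx2 above 29.9%. The last 95 bases of Phox2a overlap the end of Inppl1, a phosphatase gene on the other strand with 458 and 556 counts.

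Hand2 (ENSMUSG00000038193.3, chromosome 8, 57320983 to 57324633, plus strand) had 531.44 counts in replicate 1 and 518.92 in replicate 2, or 14.76 and 13.58 TPM (14.2 ± 0.834 TPM, n = 2). Both values lay above every value of Phox2a and Tlx2, and the authors' intervals for Hand2 and Phox2a did not overlap in either library. Hand1 (ENSMUSG00000037335.9, chromosome 11, 57828705 to 57832818, minus strand) had 30 and 15 counts, or 0.99 and 0.49 TPM (0.740 ± 0.354 TPM, n = 2). The bHLH relatives thus differed widely in level: the authors' interval for Hand1 ran from 0.744 to 1.90 TPM in replicate 1, and that for Hand2 from 12.9 to 15.4 TPM. The transcripts of Hand1 were not placed alike in both libraries: the deposited share gave all reads to ENSMUST00000036917.2 in replicate 1 and all to ENSMUST00000160392.4 in replicate 2. Those shares rest on 30 and 15 counts, and the deposited posterior mean split the reads over all 3 annotated transcripts in both libraries.

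Zeb2 (ENSMUSG00000026872.12, chromosome 2, 44983632 to 45117395, minus strand) had 4059.74 counts in replicate 1 and 4596.50 in replicate 2, or 51.62 and 52.04 TPM (51.8 ± 0.297 TPM, n = 2). It stood above 80.6% of detected genes, and its values did not overlap with those of any other member. Its counts lay further apart than its TPM values: the deposited effective length of the gene, by which counts are divided, was 4665 bases in replicate 1 and 4936 in replicate 2. Insm1 (ENSMUSG00000068154.5, chromosome 2, 146221921 to 146225020, plus strand) had 44 and 51 counts, or 0.87 and 0.95 TPM (0.910 ± 0.0566 TPM, n = 2). Its values fell inside the range of the Hand1 values, so these low genes have no order between them, while Tlx2 lay 7.30-fold above Insm1 by mean TPM, with no overlap. With spike-ins and mitochondrial genes taken out of the total, Insm1 came to 1.03 and 1.15 TPM and would count as detected, so its call rests on the total chosen.

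The 6 factors were also compared between the libraries. The ratio used here is the log2 of replicate 2 over replicate 1, from expected counts scaled by TMM, with 0.5 added to each count and an exact 95% counting interval on the fold. None of the 6 lay over 2-fold apart, beside 3.6% of the 17510 genes that reached a mean count of 10. Among the 4 factors that reached a mean count of 100 there was none either, beside 0.298% of 12761 such genes. The median log2 ratio of the factors was -0.09, beside -0.003 over those 17510 genes, and 4 of the factors were lower and 2 higher in replicate 2.

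Hand1 came closest to 2-fold, at 0.5005 of its replicate 1 level (interval 0.246 to 0.944), a log2 ratio of -0.999. Its interval lay below 1, while 15.8% of the 1499 genes with a mean count of 15 to 30, a band chosen after its value was seen, were over 2-fold apart. Hand1 passed 2-fold with spike-in counts as library sizes (-1.27), by the deposited TPM (-1.01) and with a pseudocount of 0.1 (-1.02). Phox2a had a log2 ratio of -0.25, with a fold of 0.843 (0.691 to 1.03). Tlx2 stood at -0.13 with a fold of 0.912 (0.717 to 1.16), and Hand2 at -0.06 with a fold of 0.962 (0.851 to 1.09). These 3 intervals contain 1. Insm1 had a log2 ratio of 0.19, and its fold of 1.14 (0.748 to 1.75) is the least precise apart from Hand1. Zeb2, the deepest of the set, was 1.12-fold higher in replicate 2 (1.07 to 1.16), a log2 ratio of 0.16, with an interval that covers counting error only and not the spread between samples. The ratio was 0.01 by the deposited TPM, and it turned to -0.11 when spike-in counts set the library sizes, a scaling that moved every gene by -0.27 and also put Insm1 below 0.

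**Figure D2:**
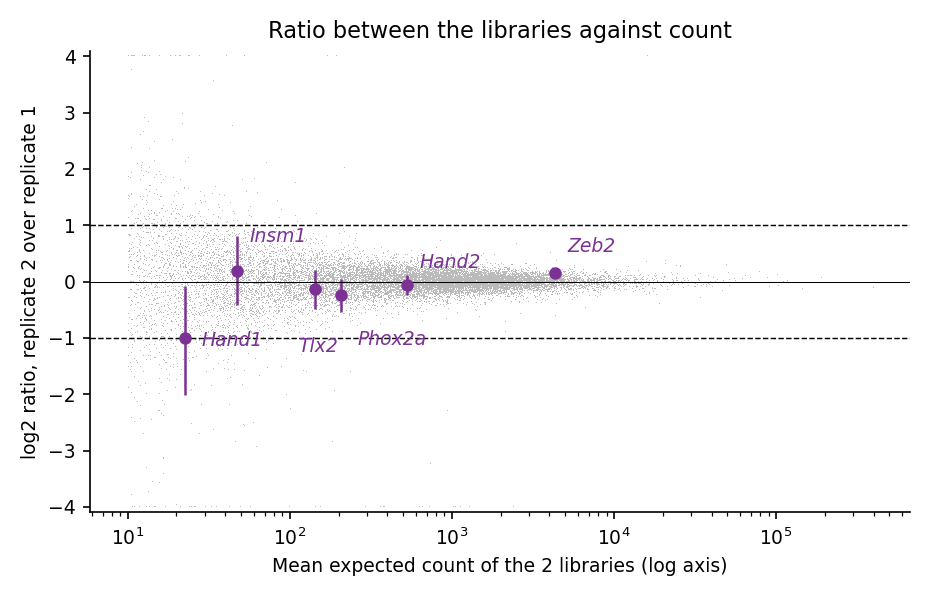
The log2 ratio of replicate 2 over replicate 1 (y axis) against the mean expected count of the 2 libraries (x axis, log scale) for all genes reaching a mean count of 10 (grey), with the 6 factors in purple and their 95% counting intervals. The dashed lines mark 2-fold, 60 genes beyond 4 on the log2 scale are drawn at the edge, and Hand1 lies at the lower dashed line, while the other 5 lie near 0.

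The neural cells that the factors are known from left a clear trace in both libraries. All 10 neuron markers were detected, with Uchl1 (75.7 ± 1.41 TPM), Stmn2 (72.5 ± 1.63 TPM), Gap43 (72.0 ± 0.127 TPM), Tubb3 (64.7 ± 1.85 TPM) and Elavl4 (48.2 ± 2.64 TPM) highest (n = 2 each), and the list summed to 393 TPM in replicate 1 and 385 TPM in replicate 2. All 7 crest and glial markers were detected too and summed to 242 and 227 TPM. The largest ratios among neuron markers were 0.21 for the synaptic gene Snap25 and -0.20 for the neurofilament gene Prph on the log2 scale, and no marker of either list lay over 2-fold apart. Phox2a and Tlx2 had lower values in replicate 2, with intervals on the fold that contain 1, while 9 of 10 neuron markers had log2 ratios above 0. With spike-in counts as library sizes, which move every gene by -0.27, all 10 neuron markers fall below 0.

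Of 28 other transcription factors known from enteric crest cells and neurons, 21 were detected, with median levels of 10.2 and 8.54 TPM in replicates 1 and 2. Among the highest were the homeobox factor Meis2 (64.2 ± 2.09 TPM), the SoxC factors Sox4 (53.8 ± 12.1 TPM) and Sox11 (53.2 ± 1.57 TPM) and the ETS factor Etv1 (40.6 ± 1.77 TPM), all of which other stomach cells can make as well. Zeb2 stood above 25 of these 28 factors by mean TPM, Hand2 above 18, Phox2a above 12, Tlx2 above 11, Insm1 above 7 and Hand1 above 6. The 7 not detected were Ebf3 (0.78 and 0.85 TPM), Myt1l (0.79 and 0.64 TPM), Tfap2a (0.56 and 0.67 TPM), Tfap2b (0.12 and 0.17 TPM), Scrt1 (0.09 and 0.08 TPM), Scrt2 (0.07 and 0.08 TPM) and Pax3 (0.00 and 0.02 TPM). Tfap2a and Pax3 mark early or dorsal neural crest, and Pax3 had 0 counts in replicate 1 and 1 in replicate 2. The widest ratios among the 24 that reached a mean count of 10 were -0.40 for Sox4 and 0.33 for Tfap2a on the log2 scale. The repressor Rest, which keeps neuronal genes off in other cells, was at 29.85 and 28.88 TPM.

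**Figure D3:**
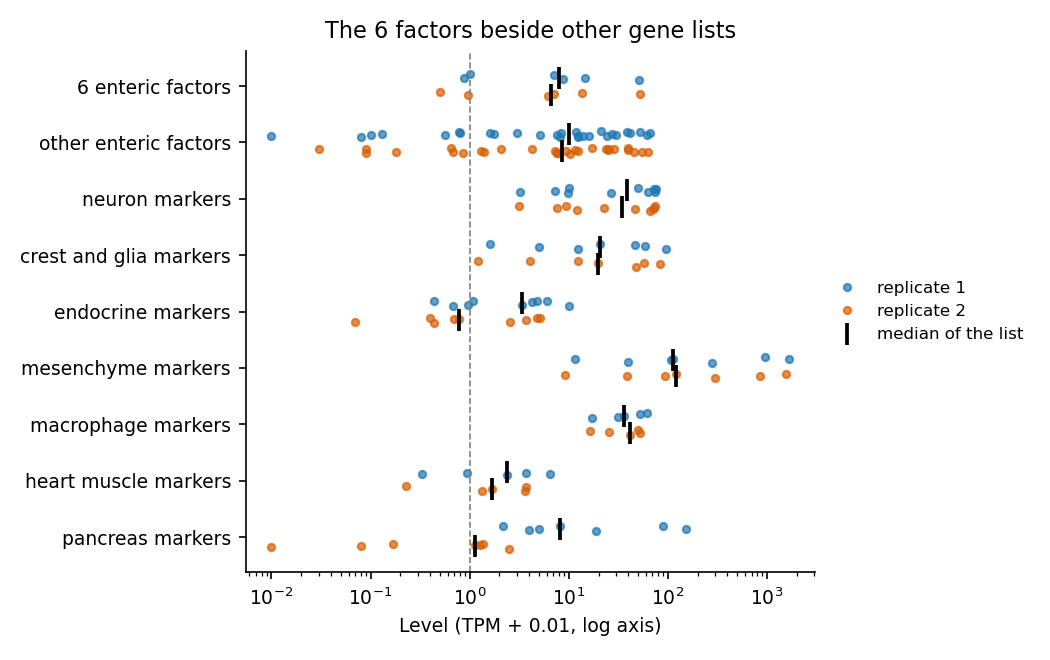
Level of each gene (x axis, TPM with 0.01 added, log scale) in 9 lists, with a point per gene and library and a black bar at the list's median. The 6 factors have medians of 7.90 and 6.62 TPM in replicates 1 and 2, below those of the neuron markers (38.4 and 34.4 TPM), and the pancreas list is the one in which the libraries part most (8.13 and 1.13 TPM).

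Of 5 close relatives of the members, 2 were detected. Zeb1, the second Zeb repressor, was at 21.38 and 19.44 TPM, below Zeb2 in both libraries. The other Tlx genes were nearly silent, Tlx1 at 0.65 and 0.09 TPM and Tlx3 at 0.08 TPM in each library, so Tlx2 was the Tlx gene with the highest level. Insm2 (14 and 6 counts, 0.28 and 0.11 TPM) lay below Insm1 in both libraries, and its log2 ratio between them was -1.18.

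Genes of catecholamine synthesis and transport, the programme in which Phox2a and Hand2 act in sympathetic neurons, were detected in part. The 4 of 8 at TPM 1 or more were Ddc (31.9 ± 6.45 TPM), which makes dopamine and serotonin, the vesicle transporter Slc18a2 (11.5 ± 0.700 TPM), the cofactor enzyme Gch1 (3.60 ± 0.453 TPM) and Th, the first enzyme of the pathway (2.59 ± 0.311 TPM, 82 and 70 counts). Dbh, which makes noradrenaline, had 14 counts in each library (0.87 and 0.32 TPM, which differ because its deposited effective length did), Slc18a1 had 17 and 22 counts, and the noradrenaline transporter Slc6a2 had 4 and 6. Pnmt, which makes adrenaline, had 0 counts in both, a result that up to 3 counts per library would still permit. In TPM Phox2a lay above Th and Dbh in each library.

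The known partners of the Hand factors were abundant. All 9 genes of the list of E-proteins, Twist factors and Id inhibitors were detected. The E-proteins Tcf4 (85.9 ± 2.84 TPM), Tcf3 (81.8 ± 2.97 TPM) and Tcf12 (64.58 and 58.16 TPM) each lay above both Hand genes. The Id proteins, which bind E-proteins and keep them from DNA, were higher still in Id2 (315 ± 14.9 TPM), Id3 (295 ± 3.85 TPM) and Id1 (111 ± 4.23 TPM), while Id4 had the widest ratio (-0.57, with 473 and 324 counts). The bHLH relatives Twist1 (6.30 and 5.56 TPM) and Twist2 (9.08 and 7.90 TPM) lay below Hand2 and above Hand1.

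Of 16 genes listed as corepressors, other partners, targets or related repressors of Zeb2 and Insm1, 14 were detected. The corepressors Ctbp1 (202 ± 8.18 TPM) and Ctbp2 (88.3 ± 0.346 TPM), which bind Zeb proteins, and the deacetylases Hdac2 (184 ± 5.84 TPM) and Hdac1 (160 ± 0.311 TPM) were among the highest of the list. Cdh1, the epithelial cadherin that Zeb2 can repress, was at 107 ± 14.9 TPM, in RNA that also holds the epithelium. The 2 not detected were the related repressors Gfi1 (0.35 and 0.19 TPM) and Gfi1b (0.41 and 0.37 TPM). Among genes of the list that reached a mean count of 10, Rcor2, a partner of the demethylase Kdm1a, had the widest ratio (-0.58, with 326 and 221 counts).

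Insm1 is also a gene of endocrine cells, and its log2 ratio of 0.19 lay above those of the endocrine markers. Its counting interval on that scale (-0.42 to 0.81) contains the ratios of Chga (-0.14), Ghrl (-0.24) and Sst (-0.20), which are therefore not separated from it. The other endocrine markers had ratios below that interval, which leaves out their own counting error. Of the 9 endocrine markers 4 were detected, and the list summed to 31.5 TPM in replicate 1 and 18.6 TPM in replicate 2. The 8 that reached a mean count of 10 were all lower in replicate 2 (median log2 ratio -0.87), and 3 of them lay over 2-fold apart. The largest ratios were those of Neurog3 (80.9 and 11 counts, -2.85) and Neurod1 (19 and 3 counts, -2.50), which act in endocrine cells of gut and pancreas, and none of the 9 markers was at 0. Insm1 had 44 and 51 counts, and the share of pancreatic or endocrine RNA in its level was not tested.

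Markers of the other cells in which members are known to act were measured as well. The 7 mesenchyme markers summed to 3174 and 2966 TPM, the 6 smooth muscle markers to 3835 and 3613 TPM, the 4 mesothelial markers to 80.5 and 63.4 TPM and the 5 macrophage markers to 198 and 186 TPM, and every gene of these 4 lists was detected. Of 5 heart muscle markers, 3 were detected and the list summed to 13.7 and 10.5 TPM. Myl7 was at 6.4 and 3.64 TPM, while Nppa was higher in replicate 2 (0.93 and 1.68 TPM). How much of Zeb2, Hand1 and Hand2 came from mesenchyme, macrophages or heart muscle was not tested.

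By the distance between log2(TPM + 1) values over the 2 libraries, among 124 other list genes, the genes nearest to Phox2a were Lrrn4 and Casz1, and those nearest to Hand2 were Rcor1 and Smad3. Rcor2 and Twist1 lay nearest to Tlx2, C1qb and Sox11 nearest to Zeb2, Ebf3 and Sst nearest to Insm1, and Pcsk1 and Dbh nearest to Hand1. With 2 libraries this likeness is one of level only.

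By the deposited shares, Zeb2 RNA was divided over many annotated transcripts, whose annotated first bases lie in distinct regions. The shares are estimates for annotated transcripts, and the starts themselves were not measured. Of its 14 annotated transcripts, 12 had a share above 0 in at least 1 library, and 3 reached 10% in either. ENSMUST00000028229.8 took 28.9% ± 3.60 of the gene, ENSMUST00000068415.6 took 19.7% ± 1.35 and ENSMUST00000145529.1, annotated as a retained intron, took 19.5% ± 0.933 (SD, n = 2 each). Transcripts annotated as protein coding together held 68.7% in replicate 1 and 68.3% in replicate 2, retained introns 24.2% and 27.0%, and other processed transcripts 7.11% and 4.74%.

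The first bases of the 14 transcripts, from GENCODE M21, fall into 3 regions when a gap of over 1000 bases starts a new one, a grouping chosen after the shares were seen. The most upstream region, at 45117395, has 1 transcript and took 1.8% in replicate 1 and 2.97% in replicate 2. The middle region, 45112890 to 45113508, has 8 transcripts and took 60.4% and 59.9% (60.2% ± 0.325, n = 2). The most downstream region, 45110288 to 45111076, has 5 and took 37.8% and 37.1% (37.5% ± 0.502, n = 2). These shares are of TPM, and those of the last 2 regions differed by less than a percentage point between the libraries. By expected counts, which weigh long transcripts more, the middle region took 57.4% and 60.4% and the downstream region 39.2% and 34.2%. Within the downstream region ENSMUST00000028229.8 took 31.5% in replicate 1 and 26.4% in replicate 2. The start in the middle Zeb2 window printed above is the first base of ENSMUST00000068415.6. The start in the downstream window lies 11 bases from that of ENSMUST00000177302.3, and the window also holds the first base of ENSMUST00000028229.8 (45110515). The antisense gene Zeb2os had 27.3 and 33.5 counts. It spans 3381 bases of the other strand, across the middle region and part of the downstream one.

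**Figure D4:**
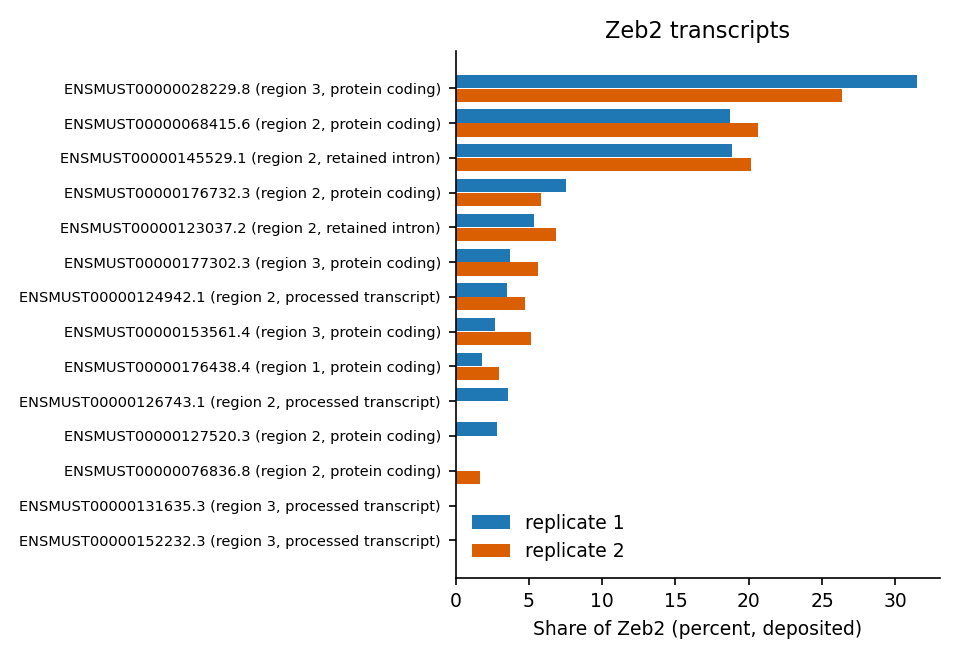
Share of each annotated Zeb2 transcript in the gene (x axis, deposited percent) in replicate 1 and replicate 2, with the start region (1 the most upstream, 3 the most downstream) and the annotated type in brackets. ENSMUST00000028229.8 is highest in both libraries, at 31.5% and 26.4%, followed by ENSMUST00000068415.6 and ENSMUST00000145529.1.

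Hand2 was quantified as 1 transcript, and its antisense neighbour Hand2os1, a long noncoding RNA gene, was at least as well covered. Hand2os1 had 660 counts in replicate 1 and 688 in replicate 2, which is 1.24 and 1.33 times the Hand2 counts. In TPM it stood at 70.85 and 70.56, or 4.80 and 5.20 times Hand2. The wider gap in TPM follows from length, since the 8 Hand2os1 transcripts in the deposited tables have 486 to 877 bases and that of Hand2 has 2235. Of these 8, 5 start 153 to 248 bases before the Hand2 start, inside the Hand2 window printed above, and took 71.1% and 74.3% of Hand2os1. None of the 8 overlaps Hand2, although GENCODE M21 extends Hand2os1 across 3251 bases of the Hand2 locus. The log2 ratio between libraries was 0.04 for Hand2os1 and -0.06 for Hand2.

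Tlx2 was divided between both of its transcripts in the same way in each library. ENSMUST00000174674.2 took 59.2% in replicate 1 and 57.7% in replicate 2 (58.4% ± 1.10, n = 2), and ENSMUST00000089641.4 took the rest (41.6% ± 1.10). These shares rest on 148 and 137 counts for the gene. Phox2a, Hand2 and Insm1 have 1 transcript each in the deposited tables, so their shares of 100% were fixed in advance.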

How the data were processed

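The study deposited, for each of 2 libraries, a table of genes and one of transcripts. Build mm10 and annotation GENCODE M4 are given in the deposited notes; the sources used here name no aligner or counter. The deposited expected counts are estimated reads, not always whole. The deposited TPM values include spike-ins in their total, and the deposited FPKM values and posterior means served as alternatives. The deposited percent values are transcript shares within a gene. Names and positions come from GENCODE M21, which also uses mm10 (42462 of 43346 identifiers matched). Numbered entries (26248, with 15.47 and 25 counts in replicates 1 and 2) and 97 spike-in entries stayed out of library sizes.

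Ratios used TMM sizes from edgeR 4.0.16 in R 4.3.3, a pseudocount of 0.5 and exact binomial intervals from scipy 1.17.1, with DESeq2 1.42.0 size factors as an alternative. With 1 library on each side no p-value was computed. The ratio calculation was tested on simulated counts. Python 3.11.15, pandas 2.3.3, numpy 2.4.6 and matplotlib 3.10.9 were used.

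The members and lists were chosen with earlier results of these data known. The rule named every member, the 5 highest genes of each list, those under TPM 1 in both libraries, the 2 widest ratios per list, overlapping genes, the 2 genes nearest in level to each member and transcripts at 10% or more. Marker lists other than that of neurons are given mainly as sums, and not every gene within the rule is named. Rest, Tcf12 and Twist2 are named in addition. Whether the labelled replicates come from separate pups or pools, and from separate dams, is not settled, so their spread may in part be technical.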

Additional observations from a re-analysis of the deposited data

How the results depend on the processing

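The Zeb2 ratio reversed: it was -0.11 with spike-in counts as library sizes and 0.16 with TMM. The number of members detected was 4 at TPM 1 and 2 at TPM 10, and stayed at 4 or 5 under the other thresholds and TPM columns and at 4 in either library alone. The number of members over 2-fold apart was 0 and became 1 (Hand1) under 4 settings. Over all genes the count was 631, and it was 744 with spike-in counts, 712 with the deposited TPM ratio, 658 with a pseudocount of 0.1 and 1671 (9.54% of 17510) at 1.5-fold. The order of members by level held for 6 of 6 with FPKM, and for 4 with posterior mean TPM, where Hand1 and Insm1 changed places. Leaving out 1 replicate at a time kept 4 (without replicate 2) to 6 of them in place. With spike-ins and mitochondrial genes taken out of the total, the mean level of Zeb2 came to 62.2 TPM. The ranks among detected genes moved as well. By posterior mean TPM, Phox2a stood above 42.6% of them, Tlx2 above 37.3% and Zeb2 above 84.4%. Among detected protein coding genes only, the values were 27.9%, 24.2% and 78.8%. No paired analysis was possible because there is only 1 group. Depth limits Hand1 and Insm1, whose mean counts were 22.5 and 47.5.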
